A study of Sus scrofa with 14 samples.

Results

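The genes described here encode leukaemia inhibitory factor (LIF), oncostatin M (OSM), their receptor chains LIFR, OSMR and IL6ST, the transcription factor STAT3 and its companions SOCS3, CEBPD and CEBPB, followed through the pig mammary gland from late gestation to involution. They were taken by symbol from the gene tables of every library. All 9 symbols were found in the 2 tissue sections, and 8 of the 9 in each of the 10 gland libraries and the 2 milk libraries, out of 30071 gene identifiers over the whole series. SOCS3 in gland nuclei and milk cells was not analysed here.

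LIF and OSM are secreted cytokines of the interleukin 6 family. LIF binds LIFR and OSM binds OSMR, and each of these chains pairs with IL6ST, also called gp130, to activate JAK kinases, which phosphorylate STAT3. Phosphorylated STAT3 enters the nucleus and drives transcription of SOCS3, a feedback inhibitor of the receptor, and of CEBPD, a C/EBP transcription factor, while CEBPB is the related factor that is active in alveolar cells. In the mouse gland this cascade is known as the switch that starts the death of milk-producing cells when suckling stops. A transcript count does not measure phosphorylation, so STAT3 activity itself was not measured.

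The glands came from multiparous sows at day 90 of gestation (G90), day 0 and day 20 of lactation (L0 and L20), and 2 and 7 days into natural involution (PI2 and PI7), with 2 sows per stage and a separate pair of sows at each stage. No sow was treated, and no gene was altered. Nuclei were isolated from frozen tissue of the same gland position in every sow and counted by unique molecular identifiers (UMIs). The sections (G90 and PI2) and the whole milk cells (L0 and L20) had 1 library per stage, so they carry no replicate check.

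Gland libraries held 18962138 to 53165191 UMIs, and 126833 nuclei were kept. Marker genes, none of them a pathway gene, placed the nuclei in classes, with 66449 in the luminal epithelial class and 28549 (22.5%) in none. Levels are given as CPM, the UMIs of a gene summed per sow and scaled so that all genes of the same nuclei have a common total, so a level is compared between samples for a single gene and not between genes. The replicates of a stage differed widely at all stages but L0. The casein gene CSN2, a milk protein, stood at 192 CPM in L20 replicate 1 and at 478 CPM in PI2 replicate 2, against 5.67 CPM in L20 replicate 2 and 2.22 CPM in PI2 replicate 1. The G90 replicates stood at 93.7 and 2443 CPM, those of PI7 at 1.49 and 0.191 CPM, and those of L0 were alike at 1932 and 2014 CPM. Luminal nuclei made up 51.8% and 63.2% of the first pair and 9.22% and 54.9% of the second, 49.4% and 82.2% at G90, and 24.4% and 47.4% at PI7. L20 replicate 2 also held 526 of the 643 adipocyte nuclei. The stage labels were kept as given. Whether any L20 or PI2 gland, L20 replicate 2 included, carries the label of another stage was not tested. If so, its values would not stand for the stage of its label. For several luminal changes the range over fits that leave out 1 gland at a time is given beside the value. The genes of immediate response to handling summed to 271 to 2317 CPM, with L20 replicate 1 highest. Their part in the results was not tested.

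LIF was scarcely detected in luminal epithelial nuclei of late gestation and of the first day of lactation, and was high in a single gland at L20. The 2 G90 glands had 1.74 and 0.389 CPM, and the 2 L0 glands 0.974 and 0.850 CPM. At L20 the values were 94.3 and 4.47 CPM, at PI2 3.20 and 21.2 CPM, and at PI7 3.81 and 9.77 CPM. All 6 later glands lay above all 4 earlier ones, while the replicates of L20 and of PI2 lay far apart. From L0 to L20 the fitted log2 fold change was 5.62 (SE 1.55, n = 2 sows per stage), with an adjusted p of 0.191 by edgeR's quasi-likelihood test with Benjamini-Hochberg adjustment, and so was not called. Without L20 replicate 1 the change was 1.60, and without L20 replicate 2 it was 6.54. Each of these values leaves 1 gland at L20, so the spread came from the other stages. Without the filter on low counts the change was 5.62 and was called (edgeR adjusted p = 0.00949). That setting called many more genes than the main fit, with the counts given below. These summed levels do not tell fewer nuclei with LIF from less LIF per nucleus.

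**Figure D1:**
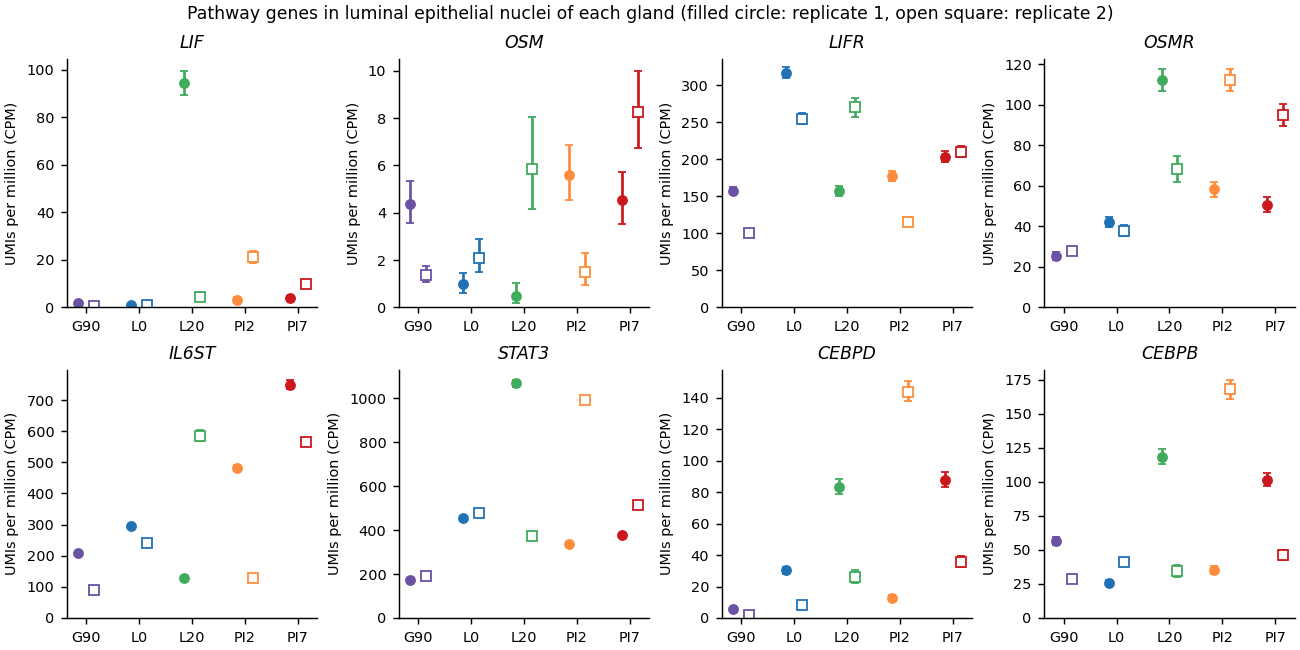
Level of each of the 8 genes (y axis, CPM, linear from 0) in luminal epithelial nuclei by stage (x axis), 1 point per gland with its exact 95% Poisson interval, which covers counting error only. LIF at L20 shows 94.3 and 4.47 CPM, and STAT3 is highest at 1067 and 991 CPM in L20 replicate 1 and PI2 replicate 2.

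The LIF of L20 replicate 1 was not limited to luminal nuclei. Of its 2383 LIF UMIs, 56.4% were in luminal nuclei and 36.8% in nuclei left without a class. Myoepithelial nuclei, the contractile cells around the alveoli, held 127 CPM and fibroblast nuclei 73.5 CPM, beside 64.4 CPM in blood endothelial and 58.0 CPM in macrophage nuclei. CSN2, which only secretory cells make, stood at 199 CPM in luminal, 89.1 CPM in myoepithelial, 72.2 CPM in fibroblast and 72.5 CPM in macrophage nuclei of the same gland. The epithelial marker EPCAM stood there at 173 CPM in luminal, 38.8 CPM in fibroblast and 41.1 CPM in macrophage nuclei. The part of free RNA in the LIF of the non-epithelial classes was not tested. In PI2 replicate 2, 77.8% of 379 LIF UMIs were luminal and 19.3% in nuclei without a class, with 5 UMIs in fibroblast, 3 in T and NK, 2 in myoepithelial and 1 in B and plasma nuclei. Its 92 macrophage and 102 blood endothelial nuclei held 0, with exact 95% upper limits of 25.9 and 19.9 CPM.

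OSM was near the limit of detection in the nuclei, with 1153 UMIs in all 10 glands together. Luminal levels were 4.39 and 1.37 CPM at G90, 0.974 and 2.10 CPM at L0, and 0.491 and 5.85 CPM at L20. They were 5.61 and 1.51 CPM at PI2 and 4.53 and 8.26 CPM at PI7. The stages overlapped, except that both PI7 glands lay above the glands of G90 and of L0. PI7 replicate 1 (69 UMIs) and G90 replicate 1 (101 UMIs) were nearly equal, so this is not a clear separation. From lactation (L0 and L20) to involution (PI2 and PI7) the log2 fold change was 1.06 (SE 0.71), with an adjusted p of 0.596 in edgeR. It ran from 0.52 without PI2 replicate 1 to 2.13 without L20 replicate 2. Macrophage nuclei, a known source of OSM, had the highest mean of the classes, 8.33 CPM ± 12 (SD, n = 10 glands). They held 108 UMIs in all, 79 of them in L20 replicate 2. The mean was raised by 41.1 CPM (2 UMIs) in the 33 macrophage nuclei of L0 replicate 2. Without that gland the macrophage mean fell below that of T and NK nuclei, which reached 18.4 CPM (4 UMIs) in PI2 replicate 2. The rank of the class thus rested on a few UMIs. OSM was too low to be tested between classes.

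LIFR, the LIF-binding chain, was higher in both L0 glands than in both G90 glands. Luminal levels were 158 and 101 CPM at G90, 317 and 255 CPM at L0, 157 and 270 CPM at L20, 177 and 116 CPM at PI2, and 204 and 210 CPM at PI7. The log2 fold change from G90 to L0 was 1.48 (SE 0.37), with an adjusted p of 0.137 in edgeR. It was called by DESeq2 (adjusted p = 0.00815), with only these 4 glands in the edgeR fit (0.0461) and without L20 replicate 2 and PI2 replicate 1 (edgeR adjusted p = 0.0470). Each of these settings called many more genes than the main fit, with the counts given below. From lactation to involution LIFR changed by -0.64 on the log2 scale (SE 0.25), with an adjusted p of 0.380 in edgeR. The change ran from -0.75 to -0.53 when 1 gland was left out.

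OSMR, the chain for OSM, was lowest before lactation. Its luminal levels were 25.3 and 27.8 CPM at G90, 42.1 and 37.9 CPM at L0, 112 and 68.1 CPM at L20, 58.3 and 112 CPM at PI2, and 50.8 and 94.8 CPM at PI7. As for LIF, the 6 later glands lay above the 4 earlier ones, and L20 replicate 1 and PI2 replicate 2 were the highest. The L0 to L20 change of OSMR was 0.90 (SE 0.56) on the log2 scale, with an adjusted p of 0.550 in edgeR, and ran from 0.09 without L20 replicate 1 to 1.35 without L20 replicate 2. The annotation places uncharacterised long noncoding genes over OSMR, and no source used here names a strand setting for the counting, so their reads may share its count.

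IL6ST, the shared signalling chain, ran opposite to OSMR within the L20 and PI2 pairs. Its luminal levels were 208 and 88.5 CPM at G90, 296 and 240 CPM at L0, 130 and 586 CPM at L20, 481 and 128 CPM at PI2, and 750 and 566 CPM at PI7. The low values at L20 and PI2 were those of L20 replicate 1 and PI2 replicate 2, the glands with most OSMR. The 2 PI7 glands lay above both L0 glands. No stage step passed the edgeR test for IL6ST, whose largest luminal log2 fold change was 1.23 (SE 0.66, adjusted p = 0.518) from G90 to L0. Its L0 to L20 change ran from -1.19 without L20 replicate 2 to 0.45 without L20 replicate 1.

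STAT3 was higher at L0 than at G90 and highest in the same pair of later glands. Its luminal levels were 174 and 191 CPM at G90, 454 and 480 CPM at L0, 1067 and 372 CPM at L20, 338 and 991 CPM at PI2, and 377 and 513 CPM at PI7. The 2 G90 glands were the lowest of the 10. The log2 fold change from G90 to L0 was 1.65 (SE 0.69), with an adjusted p of 0.376 in edgeR, and 0.0424 when only these 4 glands entered the edgeR fit. The fit of these 4 glands alone called many more genes than the main fit, with the counts given below. From lactation to involution the luminal STAT3 change was -0.28 (SE 0.48, adjusted p = 0.860 in edgeR), and the groups overlapped across their range. Its sign turned with the gland left out, from -0.82 without PI2 replicate 2 to 0.38 without L20 replicate 1.

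CEBPD, the STAT3-driven factor, was also lowest at G90. Its luminal levels were 5.82 and 1.95 CPM at G90, 30.3 and 8.33 CPM at L0, 83.3 and 26.2 CPM at L20, 12.6 and 144 CPM at PI2, and 87.9 and 35.8 CPM at PI7. Replicates of a stage differed by several-fold throughout. The G90 to L0 change was 2.70 on the log2 scale (SE 1.14), with an adjusted p of 0.379 in edgeR, and ran from 1.52 without L0 replicate 1 to 3.43 without G90 replicate 1. Its lactation to involution change in luminal nuclei ran from -0.49 without PI2 replicate 2 to 1.61 without L20 replicate 1. In fibroblast nuclei CEBPD changed by -1.19 (SE 0.44) from lactation to involution, with an adjusted p of 0.763 in edgeR.

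CEBPB showed no order by stage. Its luminal levels were 56.4 and 28.7 CPM at G90, 25.9 and 41 CPM at L0, 118 and 34.2 CPM at L20, 34.9 and 168 CPM at PI2, and 102 and 46.0 CPM at PI7. L20 replicate 1 and PI2 replicate 2 were the highest of the 10, and the other glands of those stages lay within the range of L0 and G90. The change from lactation to involution was 0.56 (SE 0.59, adjusted p = 0.753 in edgeR), and turned from -0.27 without PI2 replicate 2 to 1.32 without L20 replicate 1.

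Over the 5 stage comparisons in luminal nuclei, edgeR called none of the 8 genes. From G90 to L0 it called 1 of 19468 genes tested (0.00514%), and 2344 had an unadjusted p under 0.05, among them LIFR, STAT3 and CEBPD. It called 0 genes (0%) from L0 to L20, where 2517 had an unadjusted p under 0.05, LIF and LIFR among them. It also called 0 (0%) from L20 to PI2, 0 (0%) from PI2 to PI7 and 0 (0%) from lactation to involution, with 699, 540 and 2264 genes at an unadjusted p under 0.05, LIFR among the last. DESeq2 called 880, 960, 8, 37 and 510 genes in these 5 comparisons. Of the 8 genes it called LIFR from G90 to L0 and LIF from L0 to L20 (log2 fold change 5.59, adjusted p = 0.000201). A p that misses the threshold does not show that the stages were alike.

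The sums of all nuclei gave the same picture, with 0 of 22695 genes (0%) called by edgeR in each of the 5 comparisons. The genes at an unadjusted p under 0.05 numbered 1652, 2912, 817, 464 and 1568, and DESeq2 called 397, 1157, 25, 19 and 189. LIF had there 1.01 to 1.28 CPM at L0 and 111 and 4.75 CPM at L20, and its change of 5.42 (SE 1.45) had an adjusted p of 0.199 in edgeR and of 0.000282 in DESeq2. In fibroblast nuclei 0 of 11918 genes (0%) were called from lactation to involution by edgeR, in blood endothelial nuclei 0 of 10858 (0%) and in macrophage nuclei 0 of 8480 (0%). There 672, 475 and 503 genes had an unadjusted p under 0.05, and DESeq2 called 20, 16 and 2, none of them a pathway gene. STAT3 was highest in L20 replicate 1 and PI2 replicate 2 in some other classes and not in others. In fibroblast nuclei STAT3 stood at 608 and 507 CPM in these glands and at 190 to 324 CPM in the other 8, and in blood endothelial nuclei at 582 and 588 CPM against 222 to 436 CPM. In T and NK nuclei it stood at 369 and 382 CPM in these glands and at 437 CPM in PI7 replicate 2, and in B and plasma nuclei at 538 and 222 CPM, against 321 CPM in PI7 replicate 2.

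The other pathway genes were read in the same luminal sums, by lists of related ligands and receptors, JAK kinases and inhibitors, other STAT genes, other C/EBP genes, and known STAT3 targets and genes of involution. No gene of these lists was called between stages by edgeR. L20 replicate 1 and PI2 replicate 2 were picked as a pair after their values were seen. They held the 2 highest of the 10 luminal values for 4 of the 8 pathway genes and 8 of 29 listed targets. The same held for 998 of 12730 genes (7.84%). Since the pair was picked from these values, the shares describe it and are no test of the pathway genes or the targets. The other lists gave 2 of 9 ligands and receptors, 1 of 18 JAK kinases and inhibitors (5.56%), 1 of 5 STAT genes and 0 of 3 C/EBP genes, and the handling genes 2 of 11 (18.2%). LBP, a secreted acute phase protein, had 1152 and 831 CPM in these glands and 7.56 to 208 CPM in the other 8. PIM3, a survival kinase, had 154 and 189 CPM there and 17.3 to 61.5 CPM elsewhere. The co-regulator SBNO2 (250 and 361 CPM, elsewhere 45.5 to 174 CPM), the NF-kappa-B cofactor BCL3 (56.7 and 55.4 CPM, elsewhere 7.63 to 21.0 CPM) and the ligand CLCF1 (39.2 and 39.5 CPM, elsewhere 0.635 to 19.1 CPM) were named after their values were seen. IL6R, the interleukin 6 receptor, had 55.6 and 69.9 CPM there and 3.13 to 29.6 CPM elsewhere. The summed level of the 10 luminal markers was lowest in the same glands, at 3061 and 2971 CPM against 3527 to 5519 CPM, and its part in these values was not tested.

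Not all listed genes followed STAT3. IGFBP5, a secreted binding protein known from involuting glands, was at 41.7 and 56.9 CPM in L20 replicate 1 and PI2 replicate 2, against 216 CPM in L20 replicate 2, 320 CPM in PI2 replicate 1 and 430 and 163 CPM at PI7. The chaperone CLU had 1559 and 1587 CPM at L20, 502 and 3784 CPM at PI2, and 4294 and 1869 CPM at PI7, all but the 502 CPM above the highest value before L20, 536 CPM. STAT5A, the STAT of lactation, was at 1053 and 1019 CPM at G90 and at 108 to 571 CPM in the later glands. PTPRT, a phosphatase that acts on STAT3, was at 382 to 1059 CPM in the 4 earlier glands and at 21.8 to 69.9 CPM in the 6 later ones. The lysosomal protease CTSB was at 12.9 to 37.3 CPM in the 4 earlier glands and at 121 to 279 CPM in the 6 later ones. None of these differences between stages passed the edgeR test.

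**Figure D2:**
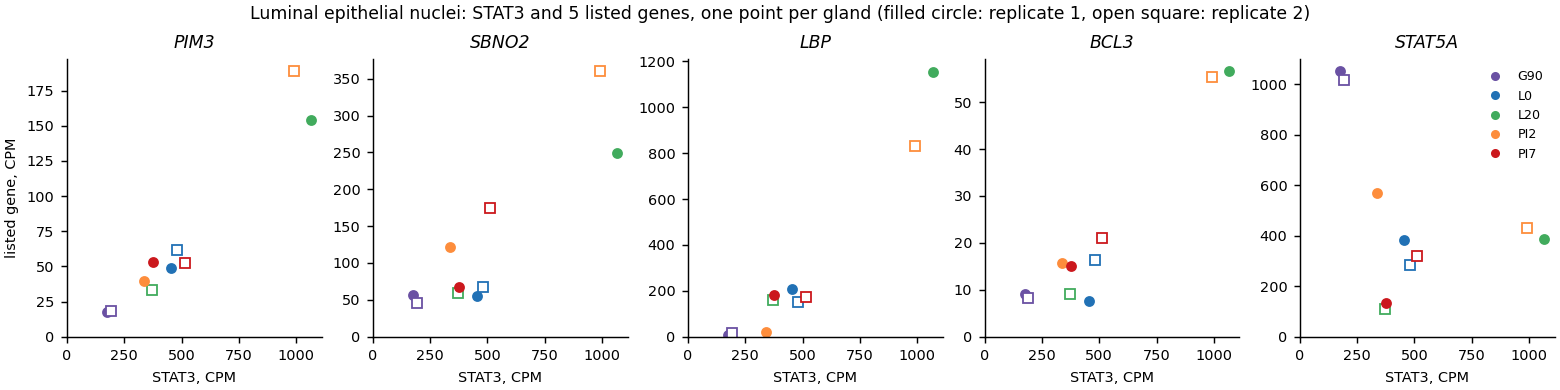
STAT3 (x axis) against 5 listed genes (y axis), both in CPM of luminal epithelial nuclei, 1 point per gland, coloured by stage. PIM3, SBNO2, LBP and BCL3 are highest in the 2 glands with STAT3 at 1067 and 991 CPM, while STAT5A is highest in the 2 G90 glands at 1053 and 1019 CPM.

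Over the 10 luminal sums the gene most like STAT3 among 10624 genes compared was PIM3 (Pearson r = 0.98 of log2(CPM + 1)), followed by the ubiquitin ligase gene RNF125 and the repressor gene BHLHE40 (both r = 0.97). For OSMR the nearest were TRAF3IP2 (r = 0.94), IL10RB and TIFA, for LIFR SNX16 (r = 0.98), FBXL4 and ARID2, and for IL6ST RIDA (r = 0.97), AP4S1 and GNPDA2. CEBPD was nearest to TRIB1 (r = 0.95), NPC2 and S100A2, and CEBPB to TKT (r = 0.96), PPP1R9B and RPS6KA1. Among the pathway genes LIF and OSMR (r = 0.87), OSMR and STAT3 (r = 0.87) and STAT3 and CEBPD (r = 0.82) varied together, while IL6ST went with OSM (r = 0.78) and LIFR (r = 0.68) and not with STAT3 (r = -0.10). These are descriptions over 10 sums that share their library, depth and stage.

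The receptor chains differed strongly between the classes of nuclei. Each class was compared with the mean of the other classes in 86 sums of at least 20 nuclei, with the sow as a block, and a gene was called at an adjusted p under 0.05 and a log2 difference over 1. In fibroblast nuclei, which make the collagen matrix, 3 of 7 tested pathway genes were called higher, against 13.9% of all 13230 genes called in either direction. They were IL6ST (log2 difference 1.41, SE 0.15), LIFR (1.38, SE 0.17) and OSMR (1.21, SE 0.14), each with an edgeR adjusted p of 1.59e-10 or less. Fibroblast IL6ST ranged from 421 to 925 CPM over the 10 glands, with a mean of 657 CPM ± 166 (SD). All 3 chains of the receptors were thus called in this class.

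**Figure D3:**
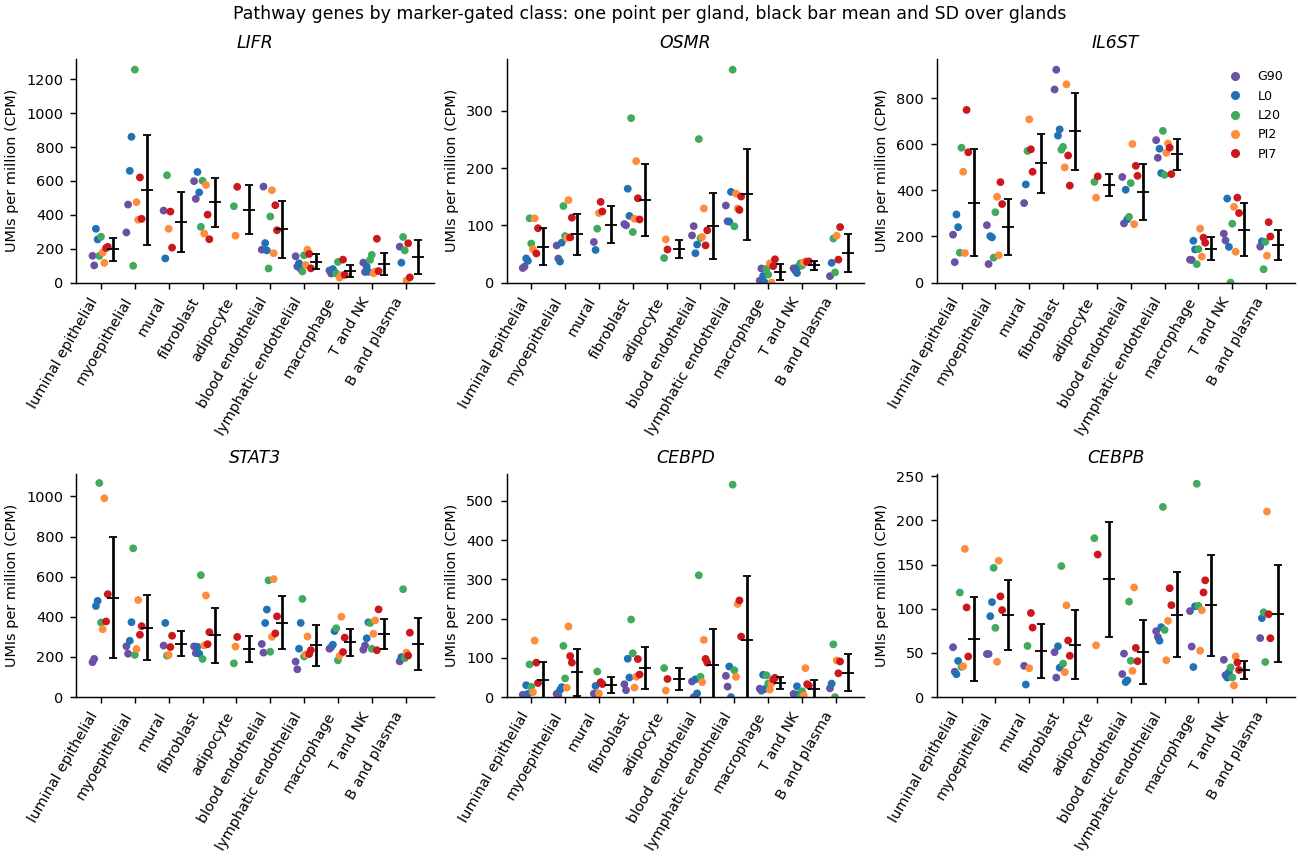
Level of 6 pathway genes (y axis, CPM) in each marker-gated class (x axis), with 1 point per gland of at least 20 nuclei, coloured by stage, and the mean with its SD in black. LIFR is highest in myoepithelial nuclei (mean 547 CPM), IL6ST in fibroblast nuclei (657 CPM) and STAT3 in luminal nuclei (496 CPM).

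In myoepithelial nuclei 1 of 7 was called, against 13.9% of all genes. LIFR was higher by 1.41 (SE 0.17, adjusted p = 7.96e-11 in edgeR), with 98.6 to 1257 CPM over the glands. The milk genes CSN2 (1.24) and LALBA (1.16) and 4 of 10 handling genes (ATF3 2.41, FOSB 2.26, EGR1 1.79 and FOS 1.27) were called higher there as well, and their part was not tested. In lymphatic endothelial nuclei 3 of 7 were called higher, against 14.9% of all genes, namely CEBPD (1.56, SE 0.21), OSMR (1.27, SE 0.15) and LIF (1.23, SE 0.39). Lymphatic CEBPD reached 542 CPM in L20 replicate 1 and was at 0 in 1 other gland, with a mean of 146 CPM ± 163 (SD, n = 10). The LIF call rested on 100 UMIs and was lost with DESeq2 (adjusted p = 0.0646), without the sow block (edgeR, 0.136), without L20 replicate 2 (edgeR, 0.0857) and without PI2 replicate 1 (edgeR, 0.0923). The mean that lymphatic LIF was set against also held adipocyte nuclei, at -2.98 for LIF (SE 1.45), with 1 UMI in L20 replicate 2. Their part in the LIF call was not tested. IL6ST stood 0.98 above the other classes (SE 0.16, adjusted p = 1.82e-07 in edgeR), just under the fold limit. It was past that limit with DESeq2 (1.05) and in 6 of the 10 fits without 1 gland (0.88 to 1.06 over all 10). Of 10 handling genes tested, 4 were also called higher in this class (IER3 2.89, DUSP1 2.23, JUN 1.22 and FOS 1.09), and the gland with most lymphatic CEBPD, L20 replicate 1, was the one with the highest handling sum. Their part in the CEBPD and LIF calls was not tested. Lymphatic LIFR was at 122 CPM ± 44.3 (SD), below the mean of the other classes by 0.90 (SE 0.22) and short of the fold limit.

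Macrophage nuclei, which engulf dying cells and fat, stood lowest of the 10 classes for all 3 receptor chains. Here 3 of 7 were called, all lower, against 18.5% of all genes, with OSMR at -1.91 (SE 0.20), LIFR at -1.82 (SE 0.24) and IL6ST at -1.35 (SE 0.19). Their mean levels were 18.0, 69.1 and 146 CPM. CEBPB, a factor of myeloid cells, was 0.55 above the mean of the other classes there (SE 0.15, adjusted p = 0.00175 in edgeR), which is under the fold limit. In T and NK nuclei 4 of 7 were called, all lower, against 16.4% of all genes. They were CEBPD (-1.49, SE 0.30), CEBPB (-1.39, SE 0.19), LIFR (-1.29, SE 0.22) and OSMR (-1.29, SE 0.19), while IL6ST was at -0.56 (SE 0.17). In the same comparison 7 of 10 handling genes were called lower, among them DUSP1 (-1.88), FOS (-1.59) and JUN (-1.36), with a list median of -1.3 against -0.04 over all genes, and their part was not tested. In B and plasma nuclei 1 of 7 was called, against 8.67% of all genes, which was IL6ST at -1.27 (SE 0.24). The milk genes CSN2 (2.19) and LALBA (1.88), markers of luminal cells, were called higher in this class, with CSN2 at 311 CPM against 1158 CPM in luminal nuclei, and the part of luminal RNA was not tested.

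STAT3 was highest in luminal nuclei, in 8 of the 10 glands, with a mean of 496 CPM ± 303 (SD). In both G90 glands luminal STAT3 lay below macrophage (241 and 249 CPM) and T and NK nuclei (236 and 257 CPM). Its difference from the other classes was 0.92 (SE 0.10, adjusted p = 6.03e-13 in edgeR), so it missed the fold limit, and 0 of 7 genes were called in luminal nuclei, against 24.4% of all genes. Without the filter on low counts the difference was 1.08 and past the limit. STAT3 in luminal nuclei exceeded macrophage (1.06, SE 0.15), lymphatic endothelial (1.13, SE 0.15) and B and plasma nuclei (1.38, SE 0.18) past the fold limit, the 3 of 45 class pairs called for it. Blood endothelial nuclei came next with 371 CPM ± 133 (SD), and 0 of 7 were called in them, against 11.4% of all genes. The same count was 0 of 7 in mural nuclei, the cells around vessels, against 8.68%, and 1 of 7 in adipocyte nuclei, against 15%. The adipocyte gene was CEBPB (1.49, SE 0.25), a factor of fat cell differentiation, measured in 3 glands at 58.7 to 180 CPM, and without L20 replicate 2 its difference was 0.78 with an adjusted p of 0.269 in edgeR.

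Over all class pairs 20.2% of tests were called. The count was 26 of 45 pairs for LIFR, 23 for OSMR, 18 for IL6ST, 17 for CEBPD, 14 for CEBPB, 3 for STAT3 and 1 for LIF. The means cover 3 glands for adipocyte, 6 for mural, 7 for B and plasma and 10 for the other classes. The order of mean LIFR levels was myoepithelial (547 CPM), fibroblast (473), adipocyte (431), mural (357), blood endothelial (314), luminal (197), B and plasma (152), lymphatic endothelial (122), T and NK (108) and macrophage (69.1). With the sow as a block, LIFR stood at 0.70 in blood endothelial, 0.67 in adipocyte and 0.59 in mural nuclei, which is another order. Of its 9 neighbouring pairs, luminal against B and plasma nuclei was called (1.04, SE 0.32, adjusted p = 0.0053 in edgeR). For OSMR the order began with lymphatic endothelial (154 CPM), fibroblast (144) and mural nuclei (101) and ended with T and NK (29.8) and macrophage nuclei (18.0). For IL6ST it began with fibroblast (657 CPM), lymphatic endothelial (557) and mural nuclei (519). No neighbouring pair was called for genes other than LIFR, so neighbours in these orders are not told apart.

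Luminal nuclei with at least 2 UMIs of the steroid and prolactin receptors (13662 hormone-sensing nuclei) were set against the other luminal nuclei of the same sows. The median UMIs per nucleus were 2859 to 5478 over the glands in hormone-sensing and 1725 to 3233 in other luminal nuclei. The part of this depth was not tested. None of 8 pathway genes was called, against 1.17% of 15535 genes tested (182 genes) in edgeR, and 3284 genes had an unadjusted p under 0.05. LIF was 30.5 CPM in hormone-sensing and 102 CPM in other luminal nuclei of L20 replicate 1, and 20.6 and 21.3 CPM in PI2 replicate 2. Over all glands its difference was -0.40 (SE 0.22, adjusted p = 0.315 in edgeR). STAT3 differed by -0.15 (SE 0.06, adjusted p = 0.159 in edgeR).

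The other pathway genes were also compared between classes. Of the listed ligands and receptors, IL11RA was higher in fibroblast nuclei (2.80, SE 0.18), and IL6R was higher in macrophage (1.35, SE 0.19), adipocyte (1.88, SE 0.31) and B and plasma nuclei (1.08, SE 0.24). In luminal nuclei IL6R was lower (-1.72, SE 0.21). Luminal STAT5B (2.12, SE 0.10) and STAT5A (1.87, SE 0.11) were higher and STAT4 (-1.22, SE 0.19) lower there, 3 of 5 other STAT genes, against 24.4% of all genes called in this class. STAT4, a STAT of lymphocytes, was higher in T and NK nuclei (5.37, SE 0.16). Of 18 JAK kinases and inhibitors, JAK2 (1.1, SE 0.14) and PTPN6 (2.58, SE 0.18) were higher in macrophage nuclei (18.5% of all genes called), and SOCS1 (2.93, SE 0.37), CISH (2.19, SE 0.27) and PTPN6 (1.94, SE 0.19) in T and NK nuclei (16.4%). In luminal nuclei SOCS6 (1.18, SE 0.12) and PTPRT (1.09, SE 0.22) were higher and SOCS1 (-1.34, SE 0.43) lower. In adipocyte nuclei CISH (3.25, SE 0.42) and PTPN11 (1.09, SE 0.21) were higher (15%). The adipocyte values here rest on 3 glands, with most nuclei from L20 replicate 2, and without that gland the genes called in this class fell from 1986 to 1047. CEBPA was higher in adipocyte (3.94, SE 0.34) and macrophage nuclei (1.44, SE 0.25).

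Of 28 listed STAT3 targets and genes of involution tested, 5 were higher and 3 lower in luminal nuclei, a share near the 24.4% of all genes called there. The acute phase genes LBP (2.29, SE 0.16), CLU (1.85, SE 0.20) and CD14 (1.31, SE 0.19) were higher, and TIMP1 (-2.16, SE 0.28) and CTSD (-1.13, SE 0.19) lower. In macrophage nuclei 5 were higher and 3 lower, against 18.5% of all genes called, with the lysosomal proteases CTSL (3.26, SE 0.26), CTSD (2.66, SE 0.15) and CTSB (2.27, SE 0.17) among the higher. The median difference of the 28 was -0.12 in luminal nuclei, against 0.20 over all genes tested there, and -0.06 in macrophage nuclei, against -0.09. All called differences in these lists had an adjusted p under 0.05 in edgeR.

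The sections compared G90 (4721 spots) with PI2 (2248 spots), and included SOCS3. A spot covers several cells, 1 section stood for each stage, and the intervals are exact and cover counting error only. STAT3 went from 63.4 to 130 CPM, a fold of 2.05 (95% interval 1.94 to 2.17). SOCS3 went from 2.80 to 6.65 CPM, a fold of 2.37 (1.82 to 3.08), and CEBPD from 2.13 to 12.4 CPM, a fold of 5.83 (4.55 to 7.53). Counting LIF at 2.21-fold (0.921 to 5.25), which rested on 13 and 12 UMIs, 4 of the 8 genes with at least 20 UMIs were over 2-fold higher at PI2 and 0 over 2-fold lower, against 13% of 12343 genes over 2-fold higher and 16.5% over 2-fold lower. OSMR changed by 1.22-fold, IL6ST by 0.962-fold, LIFR by 0.663-fold and CEBPB by 0.631-fold, from 224 to 141 CPM, and OSM was too rare to read.

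At PI2, STAT3, CEBPD and SOCS3 were higher in the spots richest in luminal markers than in the rest of the section. In the 225 spots that made up the top 10% by luminal marker share, STAT3 was at 237 CPM (95% Poisson interval 214 to 261), against 118 CPM (113 to 124) in the other 2023 spots. CEBPD was at 32.1 CPM (24.2 to 41.7) against 10.3 CPM, and SOCS3 at 14.0 CPM (8.97 to 20.8) against 5.87 CPM. IL6ST was at 150 CPM against 51.9 CPM. With the top 20% of spots, STAT3 was at 186 CPM, CEBPD at 21.2 CPM and SOCS3 at 8.30 CPM. Over all spots they stood at 130, 12.4 and 6.65 CPM, so the SOCS3 difference was small at the wider cut. Of the luminal spots of this section, 52.4% were also among the top 10% for myoepithelial markers, so these spots hold both layers of the epithelium. The myoepithelial spots had 221 CPM of STAT3, 36.2 CPM of CEBPD and 14.2 CPM of SOCS3, and their intervals overlap those of the luminal spots.

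At G90, STAT3 was again higher in luminal spots than in the rest, while CEBPD and SOCS3 were not. In G90 nuclei, by contrast, luminal STAT3 lay below the levels of macrophage and of T and NK nuclei. STAT3 was at 90.1 CPM (80.4 to 101) in the 472 luminal spots and at 61.0 CPM in the rest. CEBPD was at 2.01 CPM (0.807 to 4.14) in luminal spots and 2.14 CPM in the rest, and SOCS3 at 2.29 CPM and 2.85 CPM. SOCS3 had its highest value in the spots rich in blood endothelial markers, at 11.7 CPM (7.86 to 16.8), which overlaps the interval of mural spots (3.97 to 10.3), and OSMR stood there at 30.3 CPM (23.9 to 38.0). At PI2 the blood endothelial spots had a SOCS3 level of 11 CPM (5.66 to 19.1), not told apart from the luminal spots.

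**Figure D4:**
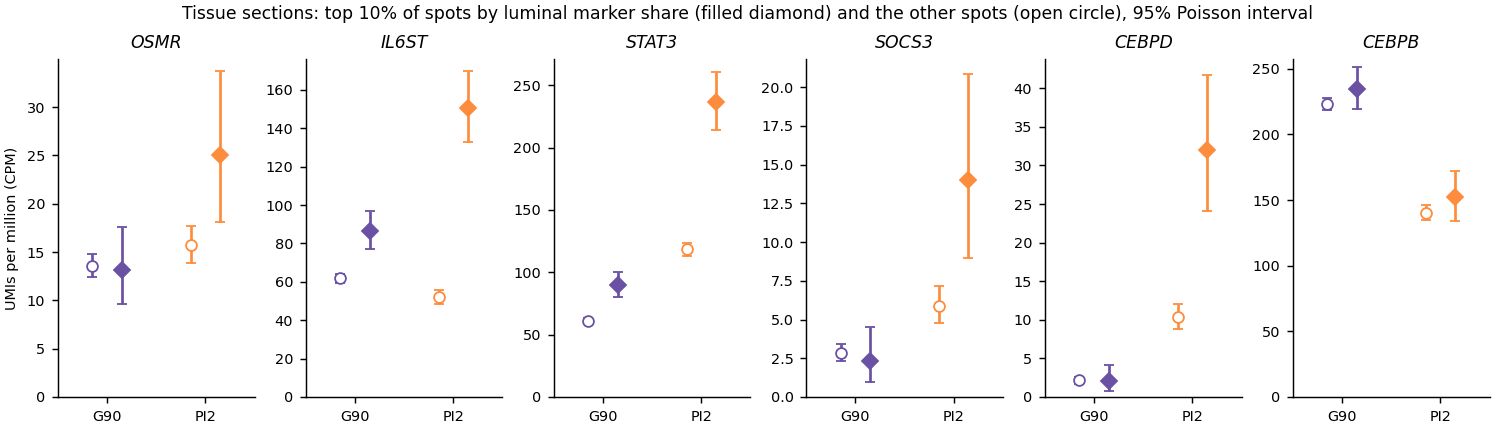
Level of 6 pathway genes (y axis, CPM) in the top 10% of spots by luminal marker share and in the other spots of the G90 and PI2 sections (x axis), with exact 95% Poisson intervals. At PI2 the luminal spots hold more STAT3 (237 against 118 CPM), SOCS3 (14.0 against 5.87 CPM) and CEBPD (32.1 against 10.3 CPM) than the rest.

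SOCS3 and CEBPD are shown with the 250 bases before their annotated starts, as examples picked because these windows hold the letters TTCNNNGAA read by STAT proteins. The same windows of LIF, OSMR, IL6ST, CEBPB and STAT3 itself held no such letters. The LIFR window was not used here, and a further window is not reported here, so this is not a full tally. Whether the letters go with a gene that varies with STAT3 was not tested. The starts and sequences are from RefSeq (Sscrofa11.1). The letters, which read the same on both strands, occurred in 6.12% of 19556 promoters of this length. The C/EBP letters TTGCGCAA, searched on both strands, occurred in neither window and in 0.164% of all promoters. Each sequence is written 5′ to 3′ on the strand of its gene, ends at the base before the start, and has the matches in capitals. The SOCS3 window is chr12:3643582-3643831 and the CEBPD window chr4:79872613-79872862, both on the plus strand.
SOCS3: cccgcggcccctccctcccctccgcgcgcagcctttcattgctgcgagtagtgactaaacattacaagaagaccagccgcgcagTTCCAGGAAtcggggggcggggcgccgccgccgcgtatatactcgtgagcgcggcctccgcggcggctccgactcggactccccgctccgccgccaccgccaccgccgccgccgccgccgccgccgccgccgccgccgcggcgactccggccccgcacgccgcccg
CEBPD: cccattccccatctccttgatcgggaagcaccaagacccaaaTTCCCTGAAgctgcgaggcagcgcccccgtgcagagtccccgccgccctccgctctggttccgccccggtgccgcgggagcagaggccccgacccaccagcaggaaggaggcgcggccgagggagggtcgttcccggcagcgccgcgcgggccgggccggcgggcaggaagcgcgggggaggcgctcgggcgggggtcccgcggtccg
The first base of a match lay 166 bases before the start of SOCS3 and 208 before that of CEBPD. The match of SOCS3 is TTCCAGGAA and that of CEBPD TTCCCTGAA. A match is a description of letters and not a measured binding site.

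In milk cells OSM was higher in the L20 than in the L0 library, and its levels were highest in neutrophil-marker cells and in cells without a class. The L0 milk gave 17571 cells and the L20 milk 14514 cells, in 1 library each, and their makeup differed, with 8230 and 4614 neutrophil-marker cells, 3413 and 1418 luminal cells and 213 and 598 macrophages. Luminal cells held 57904313 of 80995806 UMIs at L0 and 11483532 of 42948881 UMIs at L20. Levels over all cells depend on this makeup, and its part in their folds was not tested. Over all cells OSM went from 6.72 to 43.1 CPM, a fold of 6.41 (95% interval 5.83 to 7.07). In neutrophil-marker cells it went from 21.6 CPM (19.1 to 24.3) to 65.0 CPM (60.4 to 70), and in macrophages from 1.58 to 8.88 CPM. In luminal cells it was 2.35 and 3.31 CPM. When cells were held to a least number of 500 genes and a mitochondrial share of 10% or lower, the neutrophil values were 17.6 and 34.0 CPM. Cells without a class held 17.4 and 76.9 CPM, so the higher level at L20 was seen outside the classed cells as well. The macrophage marker CD163 stood at 92.0 and 712 CPM in the neutrophil-marker cells and at 606 and 648 CPM in macrophages (L0, then L20), and its part in the OSM level was not tested.

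CEBPD moved the other way in milk, from 523 to 74.9 CPM over all cells, a fold of 0.143 (0.138 to 0.148). It was lower at L20 in luminal cells (545 to 93.4 CPM), in neutrophil-marker cells (688 to 93.2 CPM) and in macrophages (363 to 93.7 CPM). CEBPB was at 4221 and 2900 CPM in neutrophil-marker cells, above the 269 and 283 CPM of luminal cells, while macrophages had 583 and 813 CPM, T and NK cells 266 and 443 CPM, and all cells together a fold of 1.5 (1.49 to 1.52). STAT3 was at 303 and 273 CPM in neutrophil-marker cells and at 73.0 and 71.5 CPM in luminal cells. In T and NK cells it was at 88.0 and 142 CPM and in macrophages at 86.4 and 118 CPM, and over all cells it changed by 1.67-fold (1.62 to 1.71).

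The receptor chains stood at 21.6 CPM or less over all cells of each milk library. IL6ST was higher in T and NK cells, at 86.3 CPM (L0) and 48.6 CPM (L20). Over all cells LIFR changed by 0.351-fold from 10.5 CPM, OSMR by 0.593-fold from 15.7 CPM and IL6ST by 0.883-fold from 21.6 CPM. LIF was at 2.31 and 5.45 CPM, a fold of 2.36 (1.94 to 2.88), with 8.18 and 4.86 CPM in neutrophil-marker cells and 0.276 and 0.958 CPM in luminal cells. Over all cells, 2 of the 8 genes were over 2-fold higher at L20 (OSM and LIF), against 12.9% of 13237 genes. There 2 were over 2-fold lower (CEBPD and LIFR), against 21.7%. These counts hold for the mixed cells, since LIF was lower at L20 in neutrophil-marker cells. With 1 library per stage, the stage and the milk sample cannot be told apart.

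**Figure D5:**
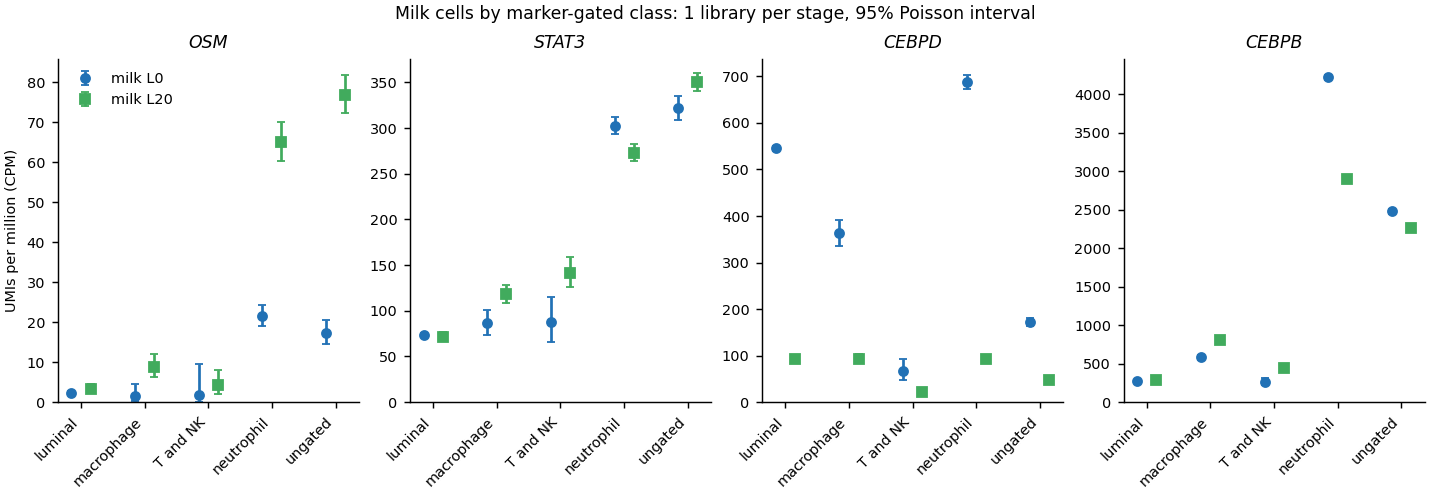
Level of 4 pathway genes (y axis, CPM) in marker-gated milk cells (x axis) of the L0 and L20 libraries, with exact 95% Poisson intervals. OSM in neutrophil-marker cells is at 21.6 and 65.0 CPM, and CEBPD is lower at L20 in all 5 groups of cells.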

How the data were processed

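The deposited files hold raw UMI counts per gene and barcode, which the authors made with CeleScope from reads aligned to Sscrofa11.1 (gland nuclei and milk cells) and with Space Ranger (tissue sections, version 1.2.0 in the submitters' processing notes). Intronic reads and strand settings are not given in the sources used here. Barcodes below 300 genes or above 25% mitochondrial UMIs were dropped, doublets were not called, and at most 205 barcodes of a gland library also occurred in another. Barcodes were placed in a class by a Poisson score of marker UMIs (probability of at least 0.95, 2 UMIs and 2 markers). Counts were summed per sow and class and tested with edgeR 4.0.16 (quasi-likelihood, TMM, Benjamini-Hochberg over all genes) in R 4.3.3, with stage as the term, or class with the sow as a block. A gene was called at an adjusted p under 0.05 and a log2 fold change over 1. DESeq2 1.42.0 was the alternative. The edgeR and DESeq2 steps were tried on simulated counts of a set spread. That trial does not give the share of true changes found at the spread of these glands. An edgeR trial at the spread of the luminal stage fit was also run, and its values are not reported here. Milk cells and sections had 1 library per stage and were given as CPM with exact 95% Poisson intervals, without a test. Named genes were the 9 pathway genes, listed genes past the call, and the 3 genes most like each pathway gene with at least 20 UMIs in luminal nuclei of every gland (not LIF, OSM or SOCS3). SBNO2, BCL3 and CLCF1 fall outside this rule and were named after their values were seen. The pathway genes and lists were chosen with earlier results of these data known. A listed gene and a promoter window are not reported here.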

Additional observations from a re-analysis of the deposited data

How the results depend on the processing

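No called difference of a pathway gene changed sign under the alternatives run, while uncalled luminal changes of LIF, OSM, OSMR, IL6ST, STAT3, CEBPD and CEBPB did when 1 gland was left out. The stage counts of called genes moved with the setting. With DESeq2, all nuclei gave 397, 1157, 25, 19 and 189 calls (G90 to L0, L0 to L20, L20 to PI2, PI2 to PI7, lactation to involution), luminal nuclei 880, 960, 8, 37 and 510, and fibroblast, blood endothelial and macrophage nuclei 20, 16 and 2, where edgeR called 0 except for 1 in luminal nuclei from G90 to L0. Without the filter on low counts, all nuclei gave 33, 269 and 3 calls in the first 3 comparisons and 29 from lactation to involution. Luminal nuclei gave 333 and 390 in the first 2 and 192 from lactation to involution. Fibroblast, blood endothelial and macrophage nuclei gave 94, 59 and 33, and between classes luminal nuclei gave 5162, T and NK nuclei 4020 and hormone-sensing nuclei 344. With only the stages compared in the fit, G90 to L0 gave 407 in all nuclei and 1042 in luminal nuclei, and L0 to L20 gave 29 in luminal nuclei. With library sizes in place of TMM luminal G90 to L0 gave 0, and with stricter barcode limits 8.

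After seeing the data, L20 replicate 1 and PI2 replicate 2 were left out together, which gave 58 and 682 calls in all nuclei (G90 to L0, L0 to L20), 653 and 116 in luminal nuclei, and 160, 18 and 13 in fibroblast, blood endothelial and macrophage nuclei from lactation to involution. Leaving out L20 replicate 2 and PI2 replicate 1 instead gave 132 and 170 in all nuclei and 35 from PI2 to PI7. Luminal nuclei then gave 663, 651 and 97, and fibroblast and macrophage nuclei 16 and 2.

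Leaving out each gland in turn gave 0 to 15 calls in all nuclei from L0 to L20, 0 to 1 from lactation to involution, 0 to 124 in luminal nuclei from G90 to L0, 0 to 81 from L0 to L20 and 0 to 3 from lactation to involution. The highest of these counts came without PI2 replicate 2 (15, 124 and 81) or without L20 replicate 2 (1 and 3), and PI2 replicate 1 had a like effect (14, 109 and 78). It gave 0 to 17 in fibroblast (17 without L20 replicate 1), 0 to 1 in blood endothelial and 0 to 2 in macrophage nuclei, and 1047 (without L20 replicate 2) to 2067 in adipocyte nuclei. Hormone-sensing nuclei gave 45 calls without the sow block and 115 with stricter barcode limits. The cause of these moves was not tested.

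Glands of the same replicate number did not pair, since the correlations of their deviations ran from -0.52 to 0.39. A replicate block gave 0 calls in luminal nuclei from G90 to L0 and in every other stage comparison. In milk, stricter limits put OSM of neutrophil-marker cells at 17.6 CPM (L0) and 34.0 CPM (L20), and with the top 20% of spots the PI2 section had 186 CPM of STAT3, 8.30 CPM of SOCS3 and 21.2 CPM of CEBPD in luminal spots. Low counts limit OSM in all classes and LIF in most. Luminal LIF had 2000 UMIs, with 1344 in L20 replicate 1 and 295 in PI2 replicate 2, and 15 to 40 per gland at G90 and L0. It differed several-fold between replicates of L20 and of PI2.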
